A study of Bos taurus with 12 samples.

Results

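Carbonic anhydrases are zinc enzymes that turn carbon dioxide and water into bicarbonate and a proton, and back again. Members work in the cytosol, in mitochondria, on the cell surface or in secreted fluid, and a few related proteins have lost the catalytic activity. In the uterus these enzymes are known from the endometrial epithelium, where bicarbonate passes into the luminal fluid that bathes sperm and the early embryo. The genes described here are CA13, CA2, CA3, CA4, CA6, CA8 and CA12, a list of 7 genes that was drawn up with earlier results of these data known. All probe sets whose only symbol in the platform annotation is one of these names were taken, which gave 8 of the 24016 probe sets tested and 6 of the 9155 genes named on the array. CA13 and CA8 had 2 probe sets each, CA2, CA3, CA4 and CA6 had 1 each, and no probe set carried the symbol CA12, so that 6 of the 7 genes were measured. In the protein-coding gene order of the bovine assembly ARS-UCD2.0, CA2 and CA3 are direct neighbours on chromosome 14 and CA13 lies close to them. CA8 is on chromosome 14 as well, CA6 on chromosome 16, CA4 on chromosome 19 and CA12 on chromosome 10.

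The study compared endometrium of Simmental heifers before embryo transfer, grouped by whether a later transfer of in vivo produced embryos led to pregnancy. There were 12 pools, each measured on 1 Affymetrix bovine array. They comprised 3 pools each of non-receptive day 3, receptive day 3, non-receptive day 7 and receptive day 7 endometrium of the estrous cycle. No treatment or altered allele is given for any group, and the number of animals in a pool and whether pools came from separate animals are not stated. Errors and p-values therefore describe how far pools of the same group lay apart, which can be a technical spread. An SD belongs to the pools named with it. SEs and p-values instead use a spread of the probe set that is shared by all groups and drawn toward that of other probe sets.

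Values are log2 signals as deposited. A difference of 1 is a change of 2-fold, a value of 0 is the floor of the scale, and levels of different probe sets cannot be set against each other. Array medians lay between 6.64 and 6.76. Markers of simple epithelium, all 10 of 10 measured, had a mean log2 level of 10.90 to 11.31 over the 12 pools. None of them passed the test between days (all probe sets 14.2%), although 4 had an unadjusted limma p under 0.05 (all probe sets 30.8%). These levels do not give the share of epithelium in the tissue. EPCAM, the epithelial adhesion molecule, lay between 12.77 and 13.29. Markers of stromal cells were also present, with all 10 of 10 measured and a mean log2 level of 8.14 to 10.19 on day 3 and 7.76 to 8.84 on day 7. Of these markers 3 fell from day 3 to day 7 (all probe sets 9.44%). The libraries differed in both measures of RNA or labelling quality that were examined. The gap between the 3' and the 5' control probe sets of beta-actin was 0.48 to 0.93 in non-receptive and 1.05 to 3.11 in receptive day 3 pools, and 0.02 to 0.63 against 0.82 to 1.25 on day 7, so the receptivity groups did not overlap on either day. Mean signal of the poly-A spike-in controls was highest, at 7.50 to 7.61, in 3 arrays, namely pool 2 of every group except receptive day 7.

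Among the carbonic anhydrases, CA13 and CA2 had the widest differences between days in non-receptive endometrium and between receptivity groups on day 3. CA13 was low in all non-receptive day 3 pools and high in the other 3 groups. CA2 was lowest in the same group but varied widely within groups. CA8, CA4 and CA6 spanned narrower ranges, CA6 with a dim signal. CA3 scattered at the low end of the scale. The genes had been picked with these patterns known, so their values and calls are given as a description and carry no test of their own. Changes and calls come from a limma model over all probe sets, in which a probe set passed at a Benjamini-Hochberg adjusted p under 0.05.

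**Figure D1:**
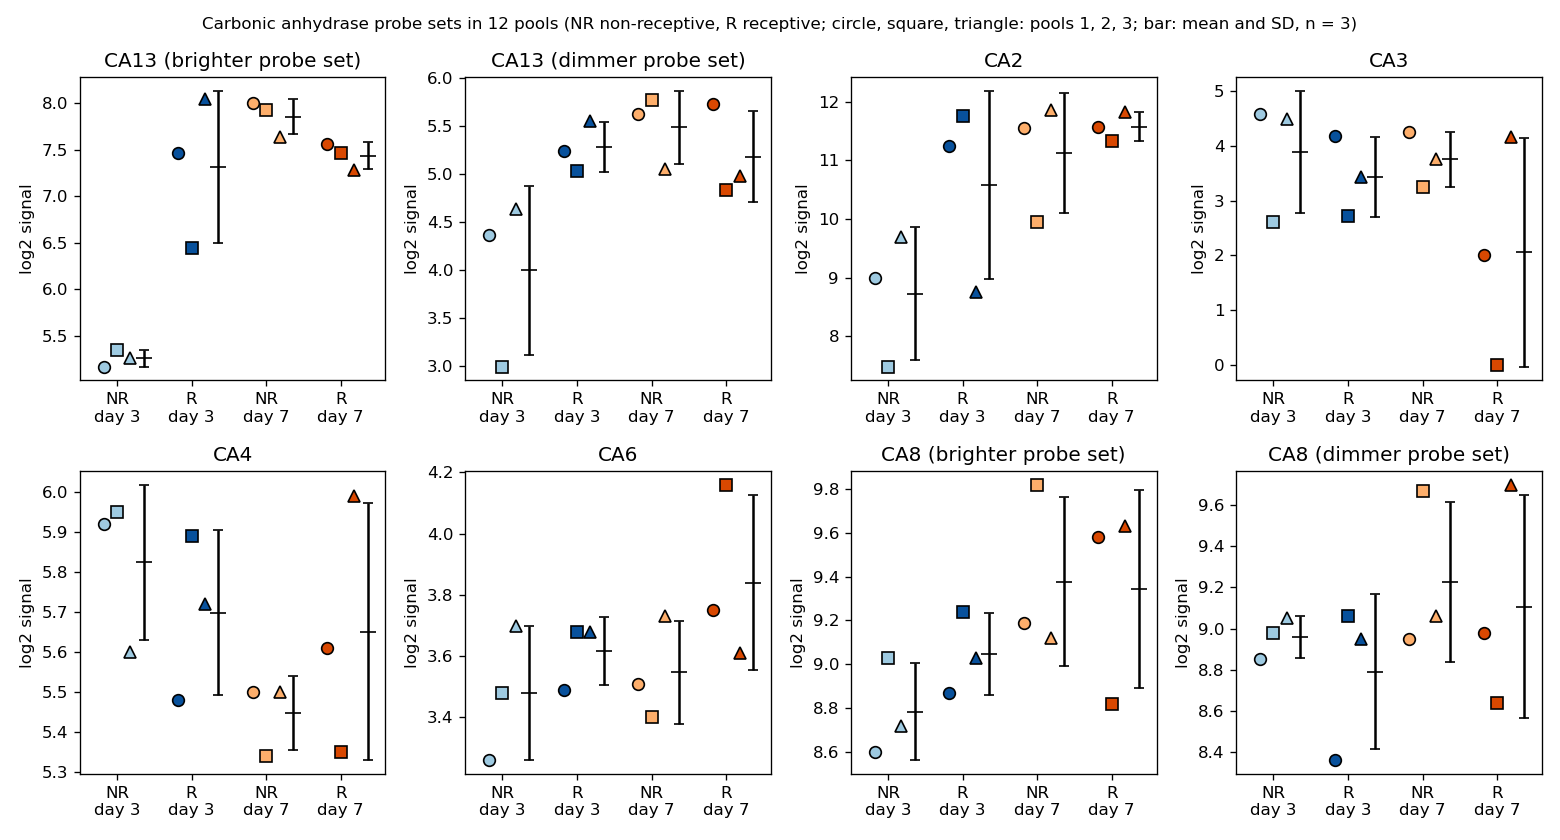
Log2 signal of the 8 carbonic anhydrase probe sets (1 panel each) in the 12 pools, by group on the horizontal axis (NR non-receptive, R receptive), with the mean and SD of 3 pools as a bar. CA13 separates non-receptive day 3 (5.17 to 5.35 on its brighter probe set) from the 9 other pools (6.44 to 8.05), while CA2 spreads from 7.48 to 11.86 with overlap between most groups.

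CA13 encodes a cytosolic carbonic anhydrase known from reproductive tissues. On its brighter probe set the log2 signal in pools 1, 2 and 3 was 5.17, 5.35 and 5.26 in non-receptive day 3 endometrium and 7.46, 6.44 and 8.05 in receptive day 3 endometrium. On day 7 it was 8.0, 7.93 and 7.64 in non-receptive and 7.56, 7.47 and 7.28 in receptive pools. Non-receptive day 3 stood below every other pool, and its 3 pools lay within 0.18 of each other. In order of mean level, non-receptive day 7 came first with 7.86 ± 0.19 (SD, n = 3), then receptive day 7 with 7.44 ± 0.14, receptive day 3 with 7.32 ± 0.81 and non-receptive day 3 with 5.26 ± 0.09. Receptive day 3 overlapped both day 7 groups, so its place among them is within the spread of its pools, while the day 7 groups did not overlap each other.

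From day 3 to day 7, CA13 rose in non-receptive endometrium by 2.60 ± 0.32 (SE), which is 6.05-fold, and passed the test. In receptive endometrium the change was 0.12 ± 0.32 and did not pass. Averaged over both receptivity groups, CA13 rose by 1.36 ± 0.23, or 2.56-fold, and passed. Receptive day 3 pools were above non-receptive ones by 2.06 ± 0.32, or 4.16-fold, without overlap, yet this difference did not pass over all probe sets. On day 7 receptive pools lay below all non-receptive ones, with a log2 difference of -0.42 ± 0.32 that did not pass. The change of the receptivity difference between the days was -2.48 ± 0.46 and did not pass either. The dimmer probe set ran from 2.99 to 4.63 in non-receptive day 3, 5.03 to 5.55 in receptive day 3, 5.05 to 5.77 in non-receptive day 7 and 4.83 to 5.72 in receptive day 7 pools. It showed the same lone low group, with changes of 1.49 ± 0.41 from day 3 to day 7 in non-receptive pools and 1.28 ± 0.41 between receptivity groups on day 3, neither of which passed. Its day change averaged over receptivity groups, 0.695 ± 0.29, did not pass either. Over the 12 pools, which share arrays and groups, both probe sets correlated with Pearson's r 0.80 and Spearman's rho 0.83. After subtracting group means r was 0.27, so the likeness lay mostly between groups.

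Single pools decided some of these CA13 calls. Without pool 2 of receptive day 3 endometrium, the lowest of its group, the day 3 difference was 2.50 and the change of the difference between days -2.92, and both then passed, as did the day 3 difference with arrays weighted by their quality, at 2.41. Without pool 1 of non-receptive day 3 the rise in non-receptive pools was 2.55 and no longer passed, while calls over all probe sets in that comparison fell from 596 to 4. In bulk RNA, fewer cells of a type and less RNA per cell cannot be told apart. With the actin gap as a covariate the day 3 difference was 1.62 and the rise in non-receptive pools 2.68. The gap did not overlap between receptivity groups on day 3, so its part in that difference cannot be told apart from receptivity. Of 10 neutrophil markers 7 were measured, and 4 of them rose from day 3 to day 7 (all probe sets 4.76%). Their mean log2 level was 5.30 to 5.43 in non-receptive day 3, 4.36 to 5.23 in receptive day 3, 6.10 to 7.40 in non-receptive day 7 and 6.58 to 8.02 in receptive day 7 pools, with MMP9 at 0 in 3 pools. On day 3 the receptive pools were thus below the non-receptive ones in this list mean without overlap. The values at 0 fell in pools 1 and 2 of receptive day 3 and pool 2 of non-receptive day 3, and they lower those means. Between receptivity groups on day 3, 0 of the 7 markers had an unadjusted limma p under 0.05, so no difference in neutrophils is read from the means. Squamous epithelium markers (6 of 11 measured, 4 higher on day 7, beside 4.76% of all probe sets) moved from 5.34 to 5.81 on day 3 to 7.39 to 7.51 in non-receptive and 6.20 to 7.40 in receptive day 7 pools. Stromal markers, given above, and markers of T and NK cells moved the other way. All 12 T and NK cell markers were measured, of which 4 fell from day 3 to day 7 (all probe sets 9.44%). Their mean log2 level was 6.08 to 6.48 on day 3 and 5.42 to 5.83 on day 7. The part of these cells in the CA13 values was not tested.

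CA2 encodes the highly active cytosolic enzyme that is widespread in secretory epithelia and abundant in red blood cells. Its log2 signal was 9.0, 7.48 and 9.70 in non-receptive day 3 pools 1 to 3, and 11.24, 11.75 and 8.76 in receptive day 3 pools. On day 7 it was 11.56, 9.95 and 11.86 in non-receptive and 11.57, 11.33 and 11.83 in receptive pools. All non-receptive pools of day 7 lay above all those of day 3, whereas receptive pools of both days overlapped. Pool 3 of receptive day 3 was within the range of the non-receptive day 3 pools. Group means in descending order were 11.58 ± 0.25 (SD, n = 3) for receptive day 7, 11.12 ± 1.03 for non-receptive day 7, 10.58 ± 1.60 for receptive day 3 and 8.73 ± 1.13 for non-receptive day 3, and each group overlapped with its neighbours in that order. 

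The day change of CA2 was 2.40 ± 0.82 (SE), or 5.27-fold, in non-receptive and 0.99 ± 0.82 in receptive endometrium (0.082 without pool 3 of receptive day 3 and 1.58 without pool 2), with a mean of 1.70 ± 0.58. None of these passed. Receptive pools differed from non-receptive ones by 1.86 ± 0.82 on day 3 and by 0.45 ± 0.82 on day 7, neither of which passed. The day 3 difference was 0.65 without the 3 arrays of high poly-A signal, 0.99 with array weights and 1.32 with the actin gap as a covariate, and it ran from 1.23 without pool 2 of non-receptive day 3 to 2.77 without pool 3 of receptive day 3. As for CA13, the covariate cannot separate the actin gap from receptivity on day 3. The day 7 difference was -0.13 without pool 2 of non-receptive day 7. Of 16 red cell markers 9 were measured, and their mean log2 level was 4.74 to 5.27 over all 12 pools with overlap between all groups. SLC4A1, the red cell anion exchanger, was at 0 in 4 pools. From day 3 to day 7 the hemoglobin gene HBB rose by 0.50 (limma adjusted p = 0.0277) and ALAS2, the red cell enzyme of heme synthesis, fell by 0.41 (adjusted p = 0.0290).

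**Figure D2:**
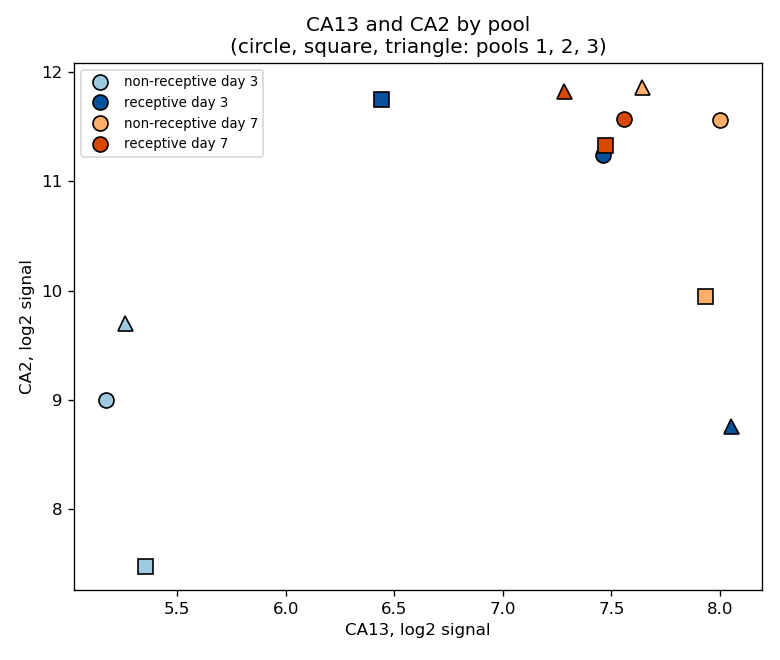
CA13 (brighter probe set, horizontal axis) against CA2 (vertical axis), both in log2 signal, with 1 point for each of the 12 pools, coloured by group. The non-receptive day 3 pools sit at the lower left, and pool 3 of receptive day 3 combines the highest CA13 (8.05) with a CA2 of 8.76.

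CA13 and CA2 shared the low non-receptive day 3 group but not the order of pools within groups. Pearson's r between them was 0.54 and Spearman's rho 0.20 over the 12 pools, and after subtracting group means r was -0.69. Within receptive day 3 the pool with the highest CA13 (8.05) had the lowest CA2 (8.76), and the pool with the lowest CA13 (6.44) had the highest CA2 (11.75). Pool 2 of non-receptive day 7 had a CA13 of 7.93 beside the lowest day 7 CA2 of 9.95. These values are a description, since the pools share groups and arrays.

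CA3 encodes a cytosolic enzyme of low activity that is typical of skeletal muscle and fat. Its log2 signal was 4.57, 2.61 and 4.48 in non-receptive day 3, 4.17, 2.71 and 3.42 in receptive day 3 and 4.25, 3.24 and 3.75 in non-receptive day 7 pools. In receptive day 7 pools it was 2.01, 0.00 and 4.16, so that the group with the lowest mean, 2.06 ± 2.08 (SD, n = 3), contained both a pool at the floor and a pool within the range of the other groups. All groups overlapped. The change from day 3 to day 7 was -1.38 ± 0.93 (SE) in receptive and -0.14 ± 0.93 in non-receptive pools, and neither passed. Single pools decided their size: the receptive change was -0.35 without pool 2 of receptive day 7, the pool at the floor, and -2.43 without pool 3, and the non-receptive change ran from -0.78 without pool 2 of non-receptive day 3 to 0.20 without pool 1. Receptive pools differed from non-receptive ones by -0.45 ± 0.93 on day 3 and -1.69 ± 0.93 on day 7, and neither difference passed. The day 7 difference ran from -2.74 to -0.66 with a pool left out. Skeletal muscle markers (10 of 12 measured) had a mean log2 level of 5.24 to 6.01 and adipocyte markers (5 of 6 measured) of 3.34 to 4.61 over the 12 pools.

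CA4 encodes an enzyme held on the outer cell surface by a lipid anchor and is known from capillary endothelium and transporting epithelia. Its log2 signal was 5.92, 5.95 and 5.60 in non-receptive day 3, 5.48, 5.89 and 5.72 in receptive day 3, 5.5, 5.34 and 5.5 in non-receptive day 7 and 5.61, 5.35 and 5.99 in receptive day 7 pools. In non-receptive endometrium the day 7 pools were all below the day 3 pools, by a log2 change of -0.38 ± 0.18 (SE) that did not pass. In receptive endometrium the change was -0.05 ± 0.18 with overlap. Endothelial markers were measured for 10 of 10 genes, of which 2 fell from day 3 to day 7 (all probe sets 9.44%). Their mean log2 levels were 5.13 to 5.55 in non-receptive day 3, 5.30 to 5.52 in receptive day 3, 4.91 to 5.35 in non-receptive day 7 and 4.98 to 5.26 in receptive day 7 pools. The part of endothelial cells in the CA4 values was not tested.

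CA6, the secreted carbonic anhydrase of saliva and milk, spanned 3.26 to 4.16 over the 12 pools. These levels lay below the lower quartile of every array (4.78 to 4.97), so the signal was dim. Its group means were 3.48 ± 0.22 (SD, n = 3) in non-receptive day 3, 3.62 ± 0.11 in receptive day 3, 3.55 ± 0.17 in non-receptive day 7 and 3.84 ± 0.29 in receptive day 7 endometrium. Every pair of groups overlapped, and none of its changes passed.

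CA8 encodes a carbonic anhydrase related protein without catalytic activity, known to bind the inositol trisphosphate receptor. On its brighter probe set the log2 signal was 8.60, 9.03 and 8.72 in non-receptive day 3, 8.87, 9.24 and 9.03 in receptive day 3, 9.19, 9.82 and 9.12 in non-receptive day 7 and 9.58, 8.82 and 9.63 in receptive day 7 pools. The non-receptive day 7 pools all lay above the non-receptive day 3 pools, by 0.59 ± 0.26 (SE), and receptive pools of both days overlapped with a change of 0.30 ± 0.26. Neither passed, nor did the day change averaged over receptivity groups, 0.445 ± 0.18. The other probe set ran from 8.36 to 9.70 with overlap between all groups and gave 0.27 for the day change in non-receptive pools. Both CA8 probe sets correlated with r 0.74 and rho 0.70 over the 12 pools.

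**Figure D3:**
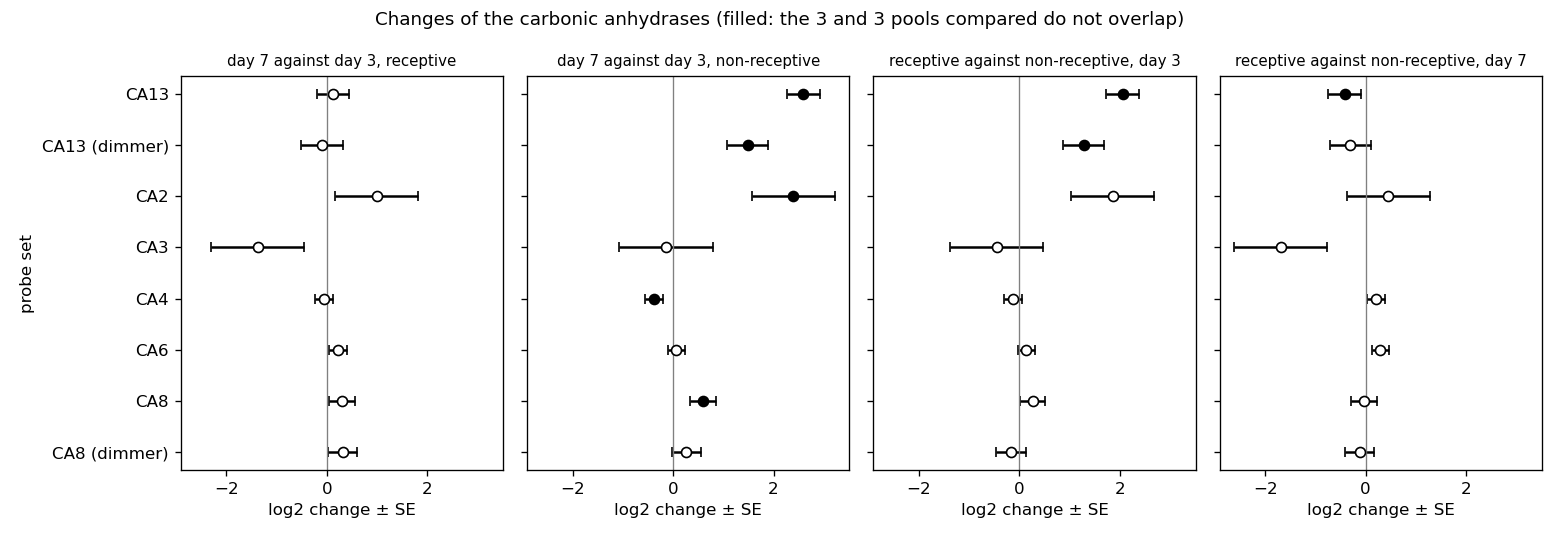
Log2 change with its SE (horizontal axis) of the 8 carbonic anhydrase probe sets in 4 comparisons of 3 pools with 3, where filled points mark groups without overlap. In non-receptive endometrium 5 of 8 were without overlap between days, 4 higher and 1 lower on day 7, beside 25.9% of all probe sets. The widest of these changes were CA13 (2.60, brighter probe set) and CA2 (2.40). Between receptivity groups on day 3 both CA13 probe sets were without overlap, beside 10.8% of all probe sets.

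Counted together, 1 of 8 carbonic anhydrase probe sets passed in the day comparison averaged over receptivity groups, beside 14.2% of all probe sets. In non-receptive endometrium 1 of 8 passed (all probe sets 2.48%), and in receptive endometrium 0 of 8 (all probe sets 1.96%). By limma no carbonic anhydrase passed between receptivity groups, where 0.00416% of all probe sets passed averaged over days, 0.0125% on day 3 and 0% on day 7, or in the difference between the day changes, where 0% did. At an unadjusted p under 0.05 the counts were 4 of 8 in the averaged day comparison, 4 in non-receptive and 0 in receptive endometrium, 1 for the averaged receptivity comparison, 3 on day 3, 0 on day 7 and 2 for the difference between the day changes. The corresponding shares of all probe sets were 30.8%, 20.5%, 20.4%, 7.38%, 5.26%, 5.81% and 3.39%. 

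Without overlap between days were 5 of 8 in non-receptive pools, 4 of them higher and 1 lower on day 7, beside 25.9% of all probe sets (10.3% higher and 15.6% lower), and 0 of 8 in receptive pools, beside 25.2%. Between receptivity groups 2 of 8 did not overlap on day 3 (all probe sets 10.8%) and 1 of 8 on day 7 (all probe sets 9.23%), all of them CA13 probe sets. Median log2 changes over the 8 probe sets were 0.43 for day 7 against day 3 in non-receptive and 0.17 in receptive pools, beside -0.05 and -0.06 over all probe sets. For receptive against non-receptive the medians were 0.20 on day 3 and -0.08 on day 7, beside -0.01 and -0.02. Because the genes were chosen with these contrasts known, nothing is read from the counts, and the comparisons share pools.

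Of 9 further carbonic anhydrase genes 4 were measured, and limma called none of them in either averaged comparison. Of all probe sets 14.2% were called between days and 0.00416% between receptivity groups, so the zero counts are no result about these 4 genes. CA5B, a mitochondrial enzyme, had log2 levels of 8.55 ± 0.22 (SD, n = 3) in non-receptive day 3, 8.26 ± 0.32 in receptive day 3, 9.09 ± 0.34 in non-receptive day 7 and 8.72 ± 0.38 in receptive day 7 pools. Its day change was 0.50 ± 0.18 (SE, limma adjusted p = 0.0869), the only one of the 4 with an unadjusted p under 0.05, and it passed in 3 of 22 alternative settings. CA14, a transmembrane enzyme, changed by 0.24 (adjusted p = 0.259), CA11, a related protein without activity, by 0.16 (adjusted p = 0.517) and the mitochondrial CA5A by -0.16 (adjusted p = 0.529). Receptive pools differed by -0.33 for CA5B, -0.27 for CA5A, -0.06 for CA11 and 0.04 for CA14, with adjusted p-values of 0.691 to 0.941.

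Genes around the carbonic anhydrases, for ion and acid transport, steroid response and oxygen supply, were read from 6 lists. Of 137 listed genes 88 were measured, of which 17 rose and 4 fell from day 3 to day 7 averaged over receptivity groups. This is 23.9% of them, beside 14.2% of all probe sets, and their median log2 change was 0.13 beside -0.05. The shares rest on unlike sets, since each of the 88 genes stood by its probe set of highest mean signal. When only probe sets with a mean signal of at least 5 were tested, 4091 of 17711 passed in this comparison. The higher share is therefore not read as a result about these genes. Between receptivity groups limma called 0 of the 88 averaged over days, beside 0.00416% of all probe sets, and 4 of the 88 had an unadjusted p under 0.05, beside 7.38% of all probe sets, so the zero count is no result about these genes.

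Of 15 bicarbonate and chloride transport genes, 2 rose and none fell, beside 4.76% of all probe sets that rose and 9.44% that fell. The count is near the 14.2% of all probe sets called and is no result about this list. CFTR, the epithelial anion channel, went from 9.57 ± 0.12 (SD, n = 3) to 10.15 ± 0.21 in non-receptive and from 9.75 ± 0.19 to 10.09 ± 0.34 in receptive pools. Its day change was 0.46 ± 0.13 (SE, limma adjusted p = 0.0432), its other probe set gave -0.02, and it passed in 8 of 22 alternative settings. CLIC4, an intracellular chloride channel protein, rose by 0.64 ± 0.19 (adjusted p = 0.0491) and passed in 10 of 22. Of its other 3 probe sets 1 passed at 0.60 (adjusted p = 0.0195), and 0.45 and 0.35 on the remaining ones did not pass.

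Among 26 genes of proton and lactate transport 5 rose and 1 fell (all probe sets 4.76% and 9.44%). The named ones encode subunits of the vacuolar proton pump, which acidifies intracellular compartments and, in some epithelia, the lumen. ATP6V1H rose by 0.46 ± 0.08 (SE, limma adjusted p = 0.00887), ATP6V1F by 0.40 ± 0.07 (adjusted p = 0.00942) and ATP6V0D1 by 0.39 ± 0.08 (adjusted p = 0.0115). ATP6V1B2, another subunit of the same pump, fell by 0.44 ± 0.09 (adjusted p = 0.0103), from 9.33 ± 0.07 (SD, n = 6) to 8.89 ± 0.16. The subunits therefore did not move in 1 direction. ATP6V1F passed in 22 of 22 alternative settings, and the other 3 passed in 21 of 22 each, all except the one without the 3 arrays of high poly-A signal.

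Sodium and potassium transport was represented by 15 genes, of which 3 rose and 1 fell (all probe sets 4.76% and 9.44%). FXYD1, a regulator of the sodium pump, rose by 1.04 ± 0.21 (SE, limma adjusted p = 0.0126), and KCNQ1, an epithelial potassium channel, by 0.80 ± 0.18 (adjusted p = 0.0169), while the other KCNQ1 probe set gave 0.28 and did not pass. SCNN1B, a subunit of the epithelial sodium channel, rose by 0.72 ± 0.18 (adjusted p = 0.0278) and passed in 12 of 21 alternative settings. FXYD6, from the same family as FXYD1, fell by 0.44 ± 0.10 (adjusted p = 0.0231) and passed in 18 of 22, not with median centring among others. FXYD1 and KCNQ1 passed in 21 of 22 each, all except the one with the actin gap as a covariate.

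In the hypoxia list, which holds targets and regulators of the oxygen-sensing pathway, 7 of 23 genes rose and 1 fell (all probe sets 4.76% and 9.44%). HMOX1, heme oxygenase, rose by 1.64 ± 0.29 (SE, limma adjusted p = 0.0080), from 7.19 ± 0.30 (SD, n = 3) to 9.07 ± 1.04 in non-receptive and from 8.13 ± 0.22 to 9.52 ± 0.10 in receptive pools. EGLN3, an oxygen-sensing prolyl hydroxylase, rose by 1.08 ± 0.15 (adjusted p = 0.00297), BNIP3, a mitophagy receptor, by 0.86 ± 0.14 (adjusted p = 0.00575) and DDIT4, an inhibitor of mTOR signalling, by 0.67 ± 0.11 (adjusted p = 0.00605). These 4 passed in 22 of 22 alternative settings each, although of the other BNIP3 probe sets 1 passed at 0.83 (adjusted p = 0.0184) and 1 gave 0.0067 and did not pass. Neutrophil and squamous epithelium markers, given above, were also higher on day 7, and their part in these rises was not tested.

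Steroid hormone receptors were measured for 5 genes, of which none rose and 1 fell (all probe sets 4.76% and 9.44%). ESR1, the estrogen receptor, fell by 0.63 ± 0.19 (SE, limma adjusted p = 0.0499) and passed in 7 of 21 alternative settings. Its levels of 2.85 to 4.45 over the 12 pools lay below the lower quartile of every array (4.78 to 4.97), so this is a change of a dim signal. PGR, the progesterone receptor, had a day change of -0.12 ± 0.36 (adjusted p = 0.860) and levels of 3.21 to 5.28 over the 12 pools.

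**Figure D4:**
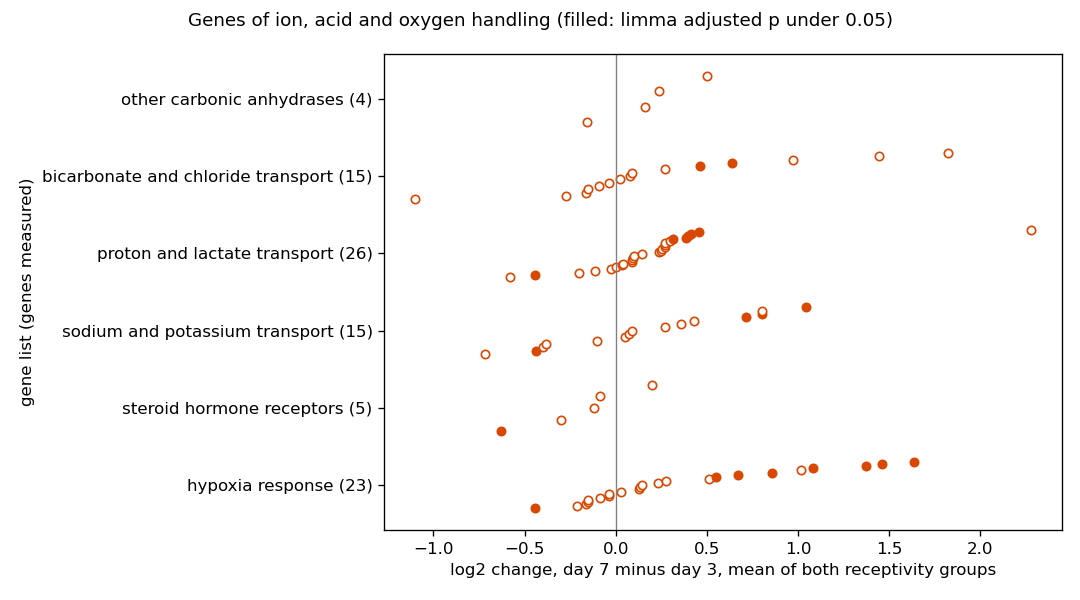
Log2 change from day 3 to day 7, averaged over receptivity groups (horizontal axis), of the measured genes in 6 lists (vertical axis, number measured in brackets), with 1 point per gene, filled where the limma adjusted p was under 0.05. The hypoxia list holds 8 filled points of 23, 7 of them to the right of 0, and the list of other carbonic anhydrases holds none. Over all probe sets 14.2% passed.

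The genes whose log2 signal ran most like each carbonic anhydrase over the 12 pools were found by Pearson's r among 12670 probe sets that carry 1 symbol and never reach the floor. For CA13 these were CCL25 (r 0.95), MCEE (r 0.95) and TST (r 0.93), and their averaged day changes were 0.21, 0.83 and 0.26. Their receptivity differences on day 3 were 0.23, 0.81 and 0.45. For CA2 they were CRYM (r 0.94), PTGS2 (r 0.93), the inducible prostaglandin synthase, and SLC39A2 (r 0.93), a zinc transporter. CRYM, PTGS2 and SLC39A2 differed between receptive and non-receptive day 3 endometrium by 1.39, 2.0 and 3.47. Over all probe sets 1 passed as higher and 2 as lower in that comparison. The 3 genes were picked for likeness to CA2, so a difference shared with it is built in. Their averaged day changes were 1.63, 2.55 and 3.16. For CA4 the nearest gene was LOC509513 (r 0.92), for CA6 AGPAT3 (r 0.93), and for CA8 ITGB3BP (r 0.94). NRBF2 was nearest to CA3 (r 0.94) and, through another of its probe sets, among the 3 nearest to CA8 (r 0.90). The highest of many correlations is high by selection, and the values describe likeness over these pools only.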

How the data were processed

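The authors deposited 1 table of log2 signals for 24128 probe sets on 12 arrays. PLIER, GCOS 1.1.1 and Affymetrix Expression Console appear in the submitters' processing notes with no role or order. How arrays were scaled to each other is not given in the sources used. After 112 control probe sets were left out, 24016 remained and were used without further normalization or filtering. Of these, 13292 carried 1 gene symbol. limma 3.58.1 (R 4.3.3, lmFit and eBayes) was fitted to all 12 arrays with a mean for each group and no pool term, in 7 two-sided contrasts, and p-values were adjusted by Benjamini-Hochberg over all 24016 probe sets. The members and gene lists were chosen with earlier results of these data known.

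A gene was represented by its probe set of highest mean signal, with others beside it. Named were all members, all measured further carbonic anhydrases, up to 4 genes of smallest p per pathway list that passed in an averaged contrast, ESR1 and PGR, and the 3 genes most like each member. Alternatives were quantile normalization, median centring, a minimum mean signal of 5, no floor values, another variance prior, array weights, the pool number as a block, actin gap or poly-A signal as covariate, only the groups compared, another choice of probe set and leaving out each pool. Leaving out the 3 arrays of high poly-A signal was added after seeing the data. The script was tested on simulated data. Array data carry no read depth, and the number of arrays limits precision.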

Additional observations from a re-analysis of the deposited data

Results flagged for a closer look

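On its brighter probe set, CA13 was higher in all 3 receptive than in all 3 non-receptive pools on day 3 and lower in all 3 on day 7, which is why it is listed here. The change of the receptivity difference from day 3 to day 7 was -2.48 on the log2 scale and did not pass. In the limma test of that change 0 of 24016 probe sets passed, and 813 had an unadjusted p under 0.05. Of all probe sets 53 (0.221%) were without overlap in opposite directions on both days. On the dimmer CA13 probe set the day 7 groups overlapped, with a difference of -0.30. With the beta-actin gap as a covariate the change was -2.25, and the part of that gap in it was not tested.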

How the results depend on the processing

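On its brighter probe set CA13 passed in the averaged day comparison under all 22 alternatives (log2 change 1.14 to 1.56). In non-receptive endometrium that probe set passed under 22 of 23 (2.51 to 2.71). The dimmer CA13 probe set passed under 0 of 21 in the averaged day comparison (0.31 to 0.85). In non-receptive endometrium it passed under 1 of 22, with array weights (0.84 to 1.805 over all settings). Carbonic anhydrase probe sets called in the averaged day comparison numbered 2 in place of 1 with a mean signal of at least 5 and with array weights (CA2 added) and with the poly-A covariate (CA8 added), and 1 to 2 when each pool was left out. In non-receptive endometrium there were 2 with array weights and 0 to 1 with a pool left out (0 without non-receptive day 3 pool 1). Between receptivity groups on day 3 there was 1 with array weights and 0 to 1 with a pool left out, and for the difference between the day changes 0 to 1 (1 without receptive day 3 pool 2 for both). Of the pathway genes, 17 rose in the averaged day comparison, 10 with the actin covariate and 11 to 20 with a pool left out (11 without non-receptive day 3 pool 1 or 2, or non-receptive day 7 pool 1). The 4 that fell became 2 with median centring, 2 with the poly-A covariate, 1 without the 3 arrays of high poly-A signal, and 1 to 4 with a pool left out (1 without non-receptive day 3 pool 1). Choosing the probe set of largest spread gave 15 and 6. The day change of PGR was -0.41 to 0.082 with a pool left out, and above 0 without pool 2 of non-receptive day 3 (0.071) or pool 3 of receptive day 7 (0.082). Over all probe sets 1144 rose and 2268 fell, against 1601 and 1562 with median centring. The causes were not tested.

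Whether pool numbers pair the samples is not stated and could not be decided from the values. Deviations from group means correlated between pools of the same number at -0.18 to 0.14 (3 of 18 pairs above 0.1), and 4 of 12 pools were most like a pool of their own number. Many of these pairs join receptive with non-receptive pools. Between days, pools of the same number correlated at 0.14, 0.05 and 0.12 in receptive endometrium, where unequal numbers gave -0.15 to 0.03. In non-receptive endometrium the same numbers gave 0.02, 0.03 and -0.04, and unequal ones -0.08 to 0.06. With the pool number as a replicate block 1 carbonic anhydrase probe set was still called in the averaged day comparison and 1 in non-receptive endometrium, at log2 changes of 1.36 and 2.60 for CA13, and 17 pathway genes rose and 5 fell. Calls over all probe sets in non-receptive endometrium went from 596 to 314. Arrays have no read depth, and a probe set near the floor, as for CA3, gives no order among pools.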
